A study of Mus musculus with 12 samples.

Results

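The maturation of the forebrain from juvenile age (P25, 25 days after birth) to young adulthood (P60, 60 days after birth) was followed in Shank3 knock-out (KO) mice. The comparison used 6 of the 12 libraries of the series, 3 of P25-KO (P25-KO1 to P25-KO3) and 3 of P60-KO (P60-KO1 to P60-KO3), chosen by genotype and age, and no wild-type (WT) library entered the test. All 6 mice were male C57BL/6J animals homozygous for a germline deletion of internal Shank3 exons, so the loss was present in every cell type and through all of development. The WT groups, P25-WT and P60-WT, also held 3 libraries each and are given beside the KO values only. Each library was made from the forebrain without the olfactory bulb. Since this is bulk tissue, fewer cells of a type and less RNA per cell cannot be told apart in any value that follows.

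Shank3 encodes a scaffold protein of the postsynaptic density of excitatory synapses, where it joins glutamate receptors to the actin cytoskeleton through partners such as the SAPAP (Dlgap) and Homer proteins. In the mouse forebrain, the weeks between these ages follow the peak of myelin synthesis and cover the pruning and stabilisation of synapses, the closing of the matrix around inhibitory neurons and the end of most vessel growth. Oligodendrocytes make the lipids and proteins of myelin, and their precursors continue to divide at a slow rate in the adult.

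The table gave values on the scale of counts, which the authors had normalized over all 12 libraries. The KO libraries summed to between 30727332 and 31727950 normalized counts, with a value above 0 for 19183 to 19223 genes. Over the genes tested, principal component 1 of the 6 libraries held 40.9% of the variance, with all P25 libraries on one side and all P60 libraries on the other. Component 2 held 18.3% and set P60-KO3 (30.6) apart from P60-KO1 (-22.6) and P60-KO2 (-20.7), so counts without single libraries are given beside many of the lists. Shank3 itself (ENSMUSG00000022623, chromosome 15) lay between 4535 and 5729 normalized counts in the 6 KO libraries and between 8936 and 11683 in the 6 WT libraries, without overlap. Within the KO, its values were 4891, 4901 and 5729 at P25 and 5186, 4535 and 5021 at P60, a log2 difference of -0.07 ± 0.08 (SE) with an adjusted p of 0.530. The table has 1 value per gene, so the exons behind that signal are not known.

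Of 17596 genes with a mean of at least 10 normalized counts, 3641 (20.7%) differed between P60-KO and P25-KO (limma with Benjamini-Hochberg adjustment, adjusted p under 0.05) and are called differentially expressed genes (DEGs) here. There were 1649 genes (9.37%) higher and 1992 (11.3%) lower at P60. With all library totals made equal instead, the split turned to 2109 higher and 1621 lower. The 3 values of each age did not overlap for 39.4% of all genes tested. Most differences were small, with a median size of 0.373 on the log2 scale, and 117 genes rose and 131 fell by at least 2-fold.

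The WT libraries, which had no part in the choice of these genes, moved the same way. Of the 3641 genes called in the KO, 3604 (99.0%) had a WT difference of the same sign, against 81.0% of all genes tested. The WT libraries of the 2 ages did not overlap, in that same direction, for 77.9% of the called genes and for 34.5% of all genes. The median difference of the genes called higher was 0.37 in KO and 0.36 in WT, and that of the genes called lower was -0.37 in KO and -0.39 in WT. The test of the difference between the genotypes, the genotype by age interaction over all 12 libraries, called 0 of 17594 genes (0%) with limma, and 288 had an unadjusted p under 0.05. With 3 libraries in a group, that count does not show that the ages changed alike in both genotypes.

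**Figure D1:**
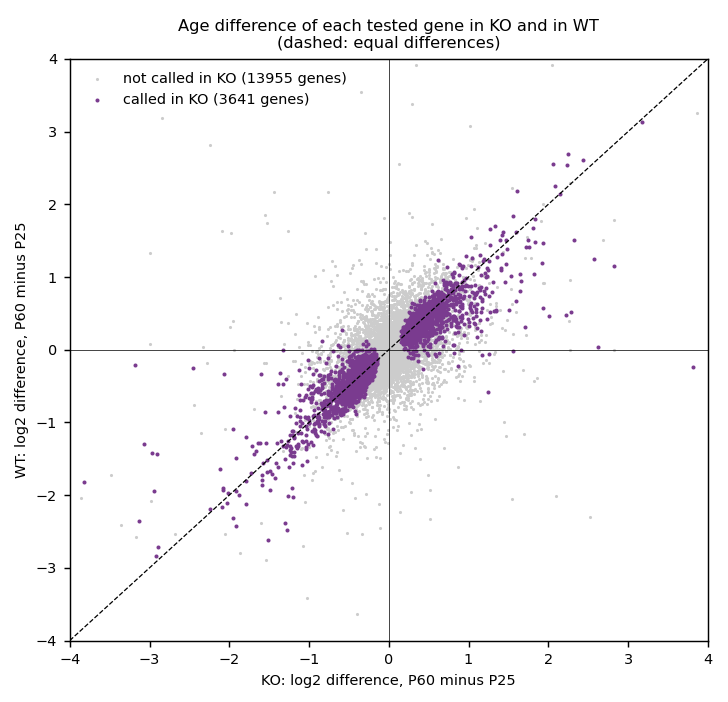
Log2 difference between P60 and P25 (normalized counts plus 1) of each of the 17596 tested genes in KO (x axis) and in WT (y axis), with genes called in the KO in purple and the others in grey, and 16 genes outside the axes not drawn. The called genes lie along the dashed line of equal differences, and 3604 of 3641 share their sign in both genotypes.

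Among the genes that rose in the KO, Il33 had the smallest p. It encodes interleukin 33, a nuclear cytokine of the interleukin 1 family, and lies on chromosome 19 (29925114 to 29960718, mouse assembly GRCm38). Its values were 448, 396 and 445 at P25 and 1387, 1552 and 1331 at P60, so that every P60 value was far above every P25 value. The log2 difference was 1.72 ± 0.09 (SE), a 3.30-fold rise, with an adjusted p of 6.65e-06. Neat1, the noncoding RNA that builds nuclear paraspeckles, had 1488, 1533 and 1301 at P25 and 3552, 3345 and 3542 at P60. Its log2 difference was 1.27 ± 0.07 (adjusted p = 1.19e-05). Kmt2a, a histone H3 lysine 4 methyltransferase, had 5160, 5071 and 5295 at P25 and 8316, 8453 and 9269 at P60, with a log2 difference of 0.74 ± 0.06 (adjusted p = 5.49e-05). None of these 3 genes had overlapping groups.

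Further genes with the smallest p in this direction were of several kinds. Snhg14, the long host transcript of the imprinted Snrpn-Ube3a region, rose by 0.92 (adjusted p = 8.59e-05), Unc13c, a priming factor for synaptic vesicles, by 0.69 (1.78e-04), and Hsf4, a heat shock transcription factor, by 0.90 (4.49e-04). The largest rise among genes with a mean of at least 50 was that of Plin4, a coat protein of lipid droplets. It had 131, 44.9 and 103 at P25 and 231, 363 and 801 at P60, a log2 difference of 2.25 ± 0.45 with an adjusted p of 0.00799. The P60 libraries differed more than 3-fold among themselves here, although they did not overlap with P25. The next, Slc6a5, the glycine transporter of hindbrain and spinal cord neurons, had 219, 46.0 and 29.9 at P25 and 494, 404 and 159 at P60, with overlapping groups (2.22 ± 0.64, adjusted p = 0.0342). It was not called without P25-KO2, P25-KO3, P60-KO1 or P60-KO2 (adjusted p between 0.0870 and 0.115). Abca8a, a lipid transporter of the ABC family, rose by 1.66 (adjusted p = 0.00118), and Chdh, choline dehydrogenase, by 1.40 (5.91e-04).

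The genes that fell with the smallest p were largely genes of myelinating oligodendrocytes. Cldn11, the claudin of the tight junctions within myelin, had the smallest p of all genes. It had 13772, 12902 and 14500 normalized counts at P25 and 5748, 5538 and 5572 at P60, and the log2 difference was -1.29 ± 0.05 (adjusted p = 5.10e-06). Gsn, which encodes the actin-severing protein gelsolin, had 8292, 8637 and 9167 at P25 and 2684, 2740 and 2161 at P60, a 3.46-fold fall (log2 difference -1.79 ± 0.09, adjusted p = 6.65e-06). The groups were far apart for both. Genes outside the myelin lists with p-values as small were Sema4d, a semaphorin (-1.02, 1.19e-05), Ncan, the proteoglycan neurocan (-0.95, 1.19e-05), Eln, elastin (-1.88, 1.19e-05), and Actb, cytoplasmic beta-actin (-0.75, 1.35e-05). Of the 31-base words of Actb transcripts, 23.6% also occur in other genes. A pair of small nuclear or cytoplasmic RNAs had still larger differences, Rn7s1 (1011, 2353 and 310 at P25, 111, 112 and 85.9 at P60) and Rnu1a1 (154, 238 and 6.95 at P25, listed at 0, 0 and 1.15 at P60). All of their 31-base words, 100%, occur in other genes, their P25 values differed strongly among themselves, and their split is uncertain.

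**Figure D2:**
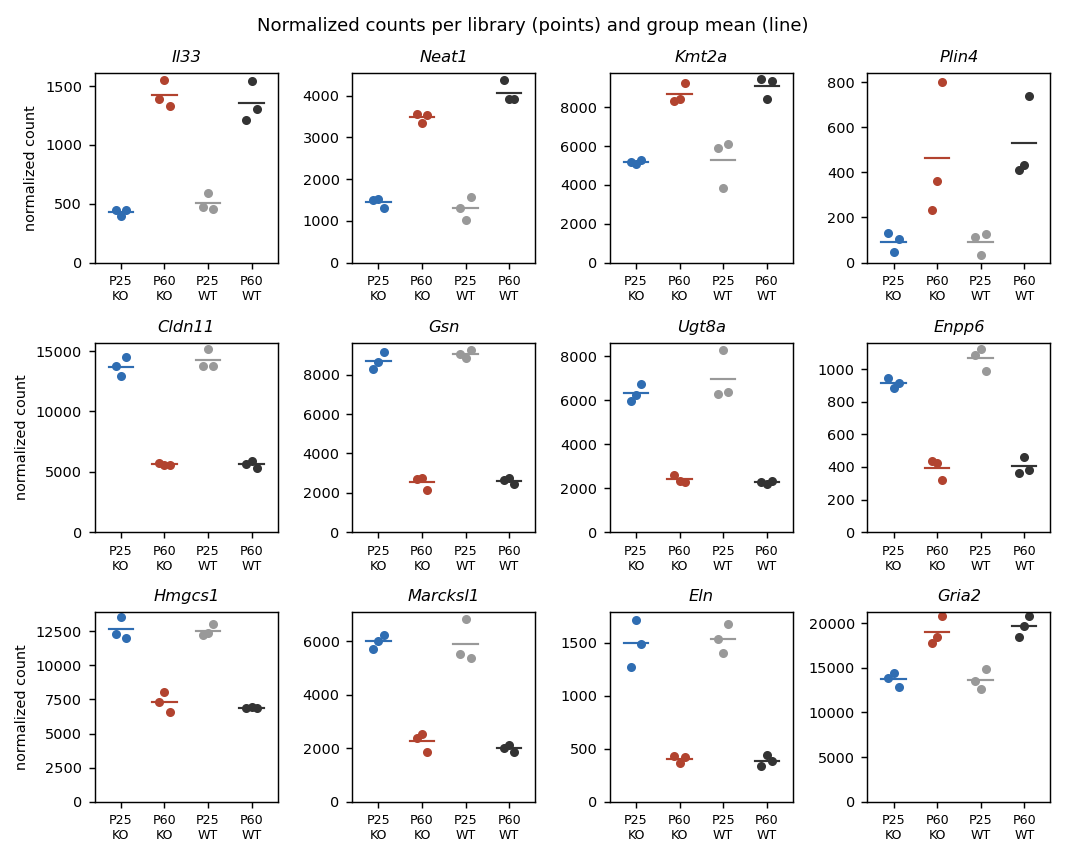
Normalized counts (y axis, from 0) of 12 genes in each library, with points for the 3 libraries of P25-KO, P60-KO, P25-WT and P60-WT and a line for the group mean. In KO, Il33, Neat1, Kmt2a, Plin4 and Gria2 are higher at P60 in every library and the other genes shown are lower in every library, and the WT values lie at similar heights.

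Gene lists were described by their counts of called members beside the background of 9.37% higher and 11.3% lower. Among 18 lists of cell type markers, the 3 of the oligodendrocyte lineage and those of blood and immature neurons had the largest shares of members that fell. Of 40 markers of myelin and mature oligodendrocytes, 27 fell, 4 rose and 9 did not pass, with a median log2 difference of -0.67, where the median of all genes was 0.01. The summed level of the list was 513743 to 601649 normalized counts at P25 and 286304 to 316103 at P60. Mbp, myelin basic protein, fell from 163188, 155751 and 195306 to 95677, 91591 and 82024 (log2 difference -0.93 ± 0.09, adjusted p = 2.23e-04). Mag, the adhesion protein of the inner myelin wrap, fell by 1.23 (1.19e-05), and Mal, a raft protein of myelin, had a log2 difference of -1.08 (1.19e-05). The 4 members that rose were Anln, a septin-binding protein also counted among the proliferation genes (0.79 ± 0.15, adjusted p = 0.00570), Hapln2, a link protein of the node of Ranvier (0.60 ± 0.14, 0.0138), Qdpr, dihydropteridine reductase (0.46 ± 0.11, 0.0139), and Car2, carbonic anhydrase 2 (0.30 ± 0.09, 0.0354). Hapln2, Qdpr and Car2 fell outside the rule for named genes and were chosen after their values were seen. Car2 was not called without P25-KO1, P25-KO2, P60-KO1 or P60-KO2, and 25 to 26 members of the list fell when any 1 library was left out.

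Markers of earlier oligodendrocyte stages also fell, and no member of either list rose, except 1 precursor marker with library totals made equal. Of 20 markers of differentiating oligodendrocytes, 16 (80%) fell, with a median of -0.85. Enpp6, a choline phosphodiesterase of newly formed oligodendrocytes, had 942, 881 and 915 at P25 and 434, 426 and 320 at P60, a log2 difference of -1.23 ± 0.12 (adjusted p = 2.49e-04), and its groups did not overlap. Gpr17, a receptor of precursors about to mature, fell by 1.19 (1.19e-05), Sirt2, a tubulin and histone deacetylase, by 0.88 (5.75e-05), and Fyn, a kinase that acts in the onset of myelination, had a log2 difference of -0.57 (1.33e-04). Bcas1, another marker of this stage, did not pass, with values of 4938, 4651 and 4978 at P25 and 5460, 5214 and 4472 at P60 (0.05 ± 0.07, adjusted p = 0.658). Of 20 precursor markers, 11 fell, with a median of -0.39. Some of these 11, Gpr17 and Olig1 among them, are also counted in the lists of differentiating or mature oligodendrocytes, so the lists share calls. Cspg4, the NG2 proteoglycan, fell by 0.76 (3.23e-04), Olig1, a lineage transcription factor, by 0.70 (5.75e-05), and Pdgfra, the receptor for the mitogen of these cells, by 0.33 (0.0114).

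**Figure D3:**
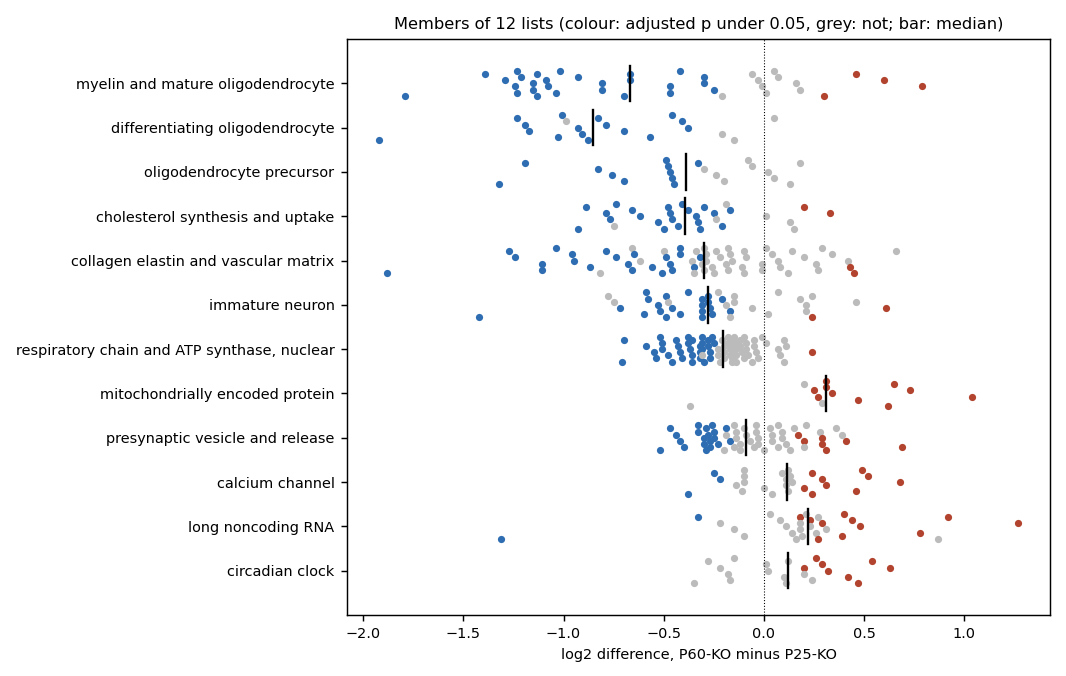
Log2 difference between P60-KO and P25-KO (x axis) of each tested member of 12 lists, with members called higher in red, lower in blue and not called in grey, and the list median as a bar. The 3 oligodendrocyte lists and the cholesterol list have medians from -0.85 to -0.39, and the mitochondrially encoded genes have a median of 0.31.

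The cholesterol pathway fell along most of its length. Cholesterol is made from acetyl-CoA through mevalonate and squalene in the cells of the brain, since little crosses from the blood, and myelin holds most of it. The pathway's genes are switched on by SREBF2, and many of their promoters carry CCAAT boxes, which the factor NF-Y binds, beside the sterol regulatory element. Of 30 genes of cholesterol synthesis and uptake, 22 fell, with a median of -0.40, and 18 fell without P60-KO3. The 2 that rose, named after their values were seen, were Lpin1, a phosphatidate phosphatase (0.33, adjusted p = 0.00926), and Srebf1, the sister factor of SREBF2 for fatty acid genes (0.20, 0.0389). Srebf1 was not called without any 1 library other than P60-KO3 (adjusted p between 0.0555 and 0.123). Promoters of 3 members that fell are printed here because they show the boxes that this list shared. They are the 250 bases before the start site from RefSeq (GRCm38.p6), 5′ to 3′, and capitals mark CCAAT or its reverse complement ATTGG and, in Hmgcs1, 1 match to TCACNCCAC, the core of the sterol regulatory element. Members without a CCAAT box were not printed, nor were windows with a box that overlap an annotated exon, such as that of Mvk, and some that do not. Of the 2 start sites listed for Pmvk, the other, 3′ of the one printed, had 0 matches.
Hmgcs1 promoter (chr13:119690101-119690350, plus strand): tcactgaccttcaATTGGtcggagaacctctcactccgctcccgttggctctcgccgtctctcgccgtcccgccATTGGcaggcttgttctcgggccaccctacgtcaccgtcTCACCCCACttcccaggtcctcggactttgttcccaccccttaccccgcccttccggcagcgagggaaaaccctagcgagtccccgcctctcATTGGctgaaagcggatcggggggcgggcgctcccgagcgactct
Mvd promoter (chr8:122443423-122443672, minus strand): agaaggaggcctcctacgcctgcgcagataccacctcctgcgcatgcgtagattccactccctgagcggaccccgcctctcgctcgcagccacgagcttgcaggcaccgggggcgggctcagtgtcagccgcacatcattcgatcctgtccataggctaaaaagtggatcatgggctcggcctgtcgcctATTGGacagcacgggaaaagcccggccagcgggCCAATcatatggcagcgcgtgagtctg
Pmvk promoter (chr3:89454291-89454540, plus strand): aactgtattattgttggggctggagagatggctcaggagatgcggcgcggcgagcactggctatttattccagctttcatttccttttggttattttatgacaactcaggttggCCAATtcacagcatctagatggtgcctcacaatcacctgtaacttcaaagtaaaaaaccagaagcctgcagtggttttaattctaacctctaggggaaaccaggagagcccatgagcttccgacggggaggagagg
Promoter windows from 250 bases before to 50 after the start were found for 22 of the 30 cholesterol genes. On either strand, and in any of a gene's windows, CCAAT was present in 19 of these 22 (86.4%), against 41.1% of 27025 genes with a promoter, 42.3% of the genes tested, 42.3% of the genes called lower and 14 of 27 myelin genes (51.9%). TCACNCCAC was present in 1 of the 22 (4.55%), against 1.44% of all genes and 1.39% of those tested. CACGTG, the E-box, was present in 5 of 22 (22.7%) against 8.09% of all genes, 11% of those tested and 11.5% of those called lower, and TGACGTCA, the cAMP response element, in 0 of 22 against 2.03% of all genes and 3.34% of those tested. A match is a description of these letters only, and the shares were not tested.

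Along the pathway, Hmgcs1, the first committed synthase, had 12316, 13546 and 12039 normalized counts at P25 and 7301, 8078 and 6596 at P60, a log2 difference of -0.79 ± 0.08 (adjusted p = 2.77e-04). The 2 ages did not overlap. Of the mevalonate enzymes, Mvk fell by 0.89 (0.00115), Pmvk by 0.33 (0.00931) and Mvd by 0.93 (0.00159), of which Pmvk and Mvd were chosen for their promoters after their values were seen. Pmvk was no longer called after a correction that took out, library by library, the dependence of the values on the length and GC content of transcripts (adjusted p = 0.135), called the length and GC correction in what follows. Fdps, which makes farnesyl pyrophosphate, fell by 0.77 (1.86e-04, 27.9% of its 31-base words in other genes), and Cyp51, which removes a methyl group from lanosterol, by 0.74 (4.46e-04). Of 16 genes of cholesterol turnover and export, 5 fell and 2 rose (1 without P25-KO1, P25-KO2, P60-KO2 or P60-KO3). With the length and GC correction 3 fell and 2 rose, and the median turned from 0.04 to -0.05. Apoe, the main lipid carrier of the brain, fell from 39565, 43361 and 52060 to 33875, 31437 and 29445 (-0.50 ± 0.09, 0.00513), while Lrp8, one of its receptors, rose by 0.39 (0.00346). Cyp46a1, which clears cholesterol from neurons, fell by 0.23 (0.0106) but was not called with the length and GC correction (adjusted p = 0.313).

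Of 40 genes of sphingolipid and fatty acid synthesis, 14 fell and 2 rose, and those with the smallest p were the enzymes of myelin lipids. Ugt8a, which makes galactosylceramide, had 5976, 6243 and 6725 at P25 and 2620, 2321 and 2298 at P60 (log2 difference -1.39 ± 0.07, adjusted p = 6.65e-06). Fa2h, which hydroxylates its fatty acid, fell by 1.09 (1.19e-05), Gal3st1, which makes sulfatide, by 1.04 (3.23e-04), Cers2, a ceramide synthase for very long chains, by 0.61 (3.14e-04), and Fasn, fatty acid synthase, by 0.49 (4.32e-04). The P25 and P60 groups were apart for each of these genes.

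Genes of the vascular matrix and meningeal markers fell in similar shares (35.4% and 32%), and most members of both lists did not pass. Of 65 genes for collagens, elastin and vascular matrix, 23 fell and 2 rose (1 without P60-KO1), with a median of -0.30. Eln, named above, had 1273, 1717 and 1488 at P25 and 429, 364 and 419 at P60, a 3.67-fold fall. Col1a1 and Col1a2, the chains of fibrillar collagen I, had log2 differences of -1.24 (8.10e-05) and -1.11 (3.08e-05), Col3a1 fell by 1.27 (3.23e-04), and Hspg2, the basement membrane proteoglycan perlecan, by 1.04 (7.96e-04). Of 25 fibroblast and meningeal markers, 8 fell (5 without P60-KO1), among them Igf2, a growth factor of the meninges and choroid plexus (-0.80 ± 0.08, 2.49e-04), of whose 31-base words 63.1% occur in other genes. The summed level of the markers was 29151 to 32154 at P25 and 31048 to 32480 at P60. Ptgds, prostaglandin D synthase, rose by 0.42 (0.00290), and Dcn, decorin, a defining marker, did not pass (0.07 ± 0.09, adjusted p = 0.620). Of 30 endothelial markers, 5 fell (3 without P25-KO1 or P25-KO3), including Slc16a1, a monocarboxylate transporter (-0.62, 0.00160), and Vwf, von Willebrand factor (-0.86, 0.00342). Cldn5, the main claudin of the barrier, did not pass (632, 945 and 1091 at P25, 1007, 628 and 1051 at P60, adjusted p = 0.981). Of 18 mural cell markers, 4 fell, among them Cspg4 and Rgs5 of pericytes, the latter by 0.51 (0.00234). Cspg4 here and Pdgfra among the fibroblast markers are also counted in the oligodendrocyte precursor list above.

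Blood transcripts moved with age too. Of 9 blood markers, 6 fell and none rose, and their summed level was 31201, 35113 and 53587 at P25 and 14614, 15527 and 14648 at P60. Hba-a1, an alpha globin, had 5507, 6513 and 10591 at P25 and 1487, 1513 and 1606 at P60 (log2 difference -2.24 ± 0.18, adjusted p = 9.76e-05). Hbb-bs, a beta globin, fell by 2.03 (5.62e-04), and Alas2, the haem synthesis enzyme of red cells, had a log2 difference of -1.57 (0.00225). The alpha globins share 75.5% of the words of Hba-a1 with other genes, and Hbb-bs 54.4%, so the split among globins is uncertain. The part of blood content in the vascular results above was not tested.

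Astrocyte markers fell more often than they rose, and few microglial genes changed. Of 40 astrocyte markers, 12 fell and 1 rose (7 and 0 without P25-KO3), with a median of -0.09 and a summed level of 423329 to 467495 at P25 and 380071 to 417995 at P60. Gfap, the astrocytic intermediate filament, had 7728, 6824 and 8060 at P25 and 5677, 5528 and 5556 at P60 (log2 difference -0.43 ± 0.06, adjusted p = 0.00228), and Agt, angiotensinogen, fell by 0.53 (0.00206). Aqp4, the water channel of astrocytic endfeet, did not pass (-0.18 ± 0.07, adjusted p = 0.0895). With the length and GC correction it was called lower (-0.33, adjusted p = 0.0202). Of 35 microglia and complement genes, 1 rose, C4b, a complement component (0.55 ± 0.11, 0.00889), of whose words 48.3% occur in other genes, and 1 fell, Ly86 (-0.43 ± 0.11, 0.0225), which was not called without P25-KO1, P25-KO3, P60-KO1 or P60-KO2. Both shares lie below the background, and 4 members fell without P25-KO2 and 3 rose with library totals made equal. Cx3cr1, the fractalkine receptor of microglia, had 929, 1004 and 1009 at P25 and 937, 913 and 833 at P60 (adjusted p = 0.231).

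The choroid plexus, which secretes the cerebrospinal fluid, was the cell type list with the largest share that rose. Of 22 markers, 6 rose and 2 fell, with a median of 0.15, and 3 rose and 1 fell without P60-KO3 or P25-KO2. F5, coagulation factor V, had 120, 105 and 120 at P25 and 190, 196 and 241 at P60 (log2 difference 0.85 ± 0.14, adjusted p = 0.00308), and Kl, the hormone co-receptor klotho, rose by 0.51 (0.00387). Ttr, transthyretin, the defining transcript of this tissue, did not pass (11437, 9617 and 13102 at P25, 13221, 13616 and 12456 at P60, adjusted p = 0.137), and Igfbp2 fell by 0.49 (0.00515). Of 39 genes of ependymal cells and motile cilia, 4 rose and 1 fell (2 and 2 without P60-KO1, 2 and 1 without P60-KO3).

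Many genes listed as markers of immature neurons fell. Of 40, 22 fell, 2 rose and 16 did not pass, the Sox genes of the list among the last. The median was -0.28, and the summed level was 303089 to 306077 at P25 and 236717 to 244110 at P60. Marcksl1, an actin regulator under protein kinase C, had 5712, 6019 and 6242 at P25 and 2386, 2525 and 1865 at P60, a log2 difference of -1.42 ± 0.10 (adjusted p = 3.45e-05) and the largest of the list. The neuronal tubulins Tuba1a, Tubb2a and Tubb3 fell by 0.72 (5.60e-05), 0.58 (1.07e-04) and 0.49 (6.27e-04). Tuba1a and Tubb2a share 78.6% and 56.4% of their words with other genes, and Tubb3 shares 3.21%. Against the list, Celsr3, an adhesion receptor of axon tracts, rose by 0.61 (7.20e-04), and Dcx, doublecortin, which marks newborn neurons, had 1154, 1212 and 1173 at P25 and 1459, 1383 and 1328 at P60 (0.24 ± 0.06, 0.0287). Dcx was not called with the length and GC correction (0.03, adjusted p = 0.836), nor without P25-KO1, P25-KO3, P60-KO1 or P60-KO2. Of the 14 tubulin genes as a family, 10 fell and none rose. Of 45 genes of neurofilaments and the axonal cytoskeleton, a list that shares those tubulins, 17 fell and 4 rose (2 without P25-KO3 or P60-KO3). Of 48 proliferation genes, 8 fell and 1 rose (3 to 6 fell without 1 library, fewest without P25-KO2 or P25-KO3), with Mki67 at 143, 129 and 141 at P25 and 86.5, 91.1 and 82.6 at P60 (-0.66 ± 0.14, 0.00912).

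Markers of mature neuron types had small median differences. Of 40 glutamatergic markers, 8 fell (5 without P25-KO2) and 3 rose, with a median of -0.09. With the length and GC correction, 12 fell and 4 rose. Slc17a7, the vesicular glutamate transporter of the cortex, had 37062, 39140 and 39215 at P25 and 30619, 31303 and 29802 at P60 (log2 difference -0.33 ± 0.05, adjusted p = 0.00181), while Nptx1, a secreted pentraxin that clusters AMPA receptors, rose by 0.36 (0.00513). Of 40 GABA interneuron markers, 8 fell and 1 rose, and 4 fell with the length and GC correction and 3 to 5 without any 1 library, fewest without P25-KO2 or P60-KO1. Gad1, which makes GABA, did not pass (0.12 ± 0.06, adjusted p = 0.159). Of 34 striatal projection neuron markers, 3 fell and 2 rose, and none fell without P25-KO3 or P60-KO1, while 1 fell and none rose with the length and GC correction. Lists that bear on the borders of the dissection gave 1 call each. Of 16 markers of the olfactory bulb and of subventricular neuroblasts, Dcx was called higher, and the summed level was 14478 to 16639 at P25 and 14457 to 16048 at P60. Of 23 markers of thalamus, hypothalamus and hindbrain, Avp, the vasopressin gene, was called lower (344, 530 and 628 at P25, 335, 351 and 253 at P60, adjusted p = 0.0475), with overlapping groups. Avp was not called without P25-KO2, P25-KO3 or any of the P60 libraries (adjusted p between 0.0541 and 0.160), nor with library totals made equal (0.0560) or the length and GC correction (0.103). The mean deviation (log2) of this list from its mean over the 6 libraries was 0.405 in P60-KO1 and between -0.153 and 0.056 in the other 5 libraries. Gabra6, a receptor subunit of cerebellar granule cells, named after its values were seen, was listed at 0, 0 and 2.34 at P25 and 68.5, 4.40 and 0 at P60 and did not pass (adjusted p = 0.251). The part of dissection in the values of Slc6a5, Avp and Gabra6 was not tested.

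Several neuropeptides fell. Of 30, 8 fell and none rose, with a median of -0.13, and 1 rose with library totals made equal or without P25-KO1 or P60-KO3. Sst, somatostatin, had 5532, 5698 and 6000 at P25 and 4417, 4498 and 4553 at P60 (-0.35 ± 0.05, adjusted p = 0.00198). Npy, neuropeptide Y, fell by 0.45 (0.00300) and Cck, cholecystokinin, by 0.31 (0.0131). With the length and GC correction, Sst and Cck were not called (adjusted p = 0.0906 and 0.232), and Npy was (0.0230).

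Receptors for glutamate and GABA showed differences of both signs. Of 23 AMPA receptor subunits and auxiliary proteins, 3 rose (1 without P25-KO3 or P60-KO3) and 4 fell. Gria2, the subunit that keeps the receptor closed to calcium, had 13878, 14398 and 12903 at P25 and 17832, 18435 and 20766 at P60 (log2 difference 0.47 ± 0.07, adjusted p = 0.00183), and its value with the length and GC correction was 0.22. Gria1 did not pass (0.03 ± 0.05, adjusted p = 0.712), and Cnih2, an auxiliary protein, fell by 0.39 (0.00376). Of 8 genes listed for the NMDA receptor, 2 fell, Grin1, the obligatory subunit, by 0.24 (0.00797) and Grina, which is not a subunit, by 0.27 (0.00303). Neither was called with the length and GC correction (adjusted p = 0.175 and 0.125). Of 17 kainate and metabotropic receptors, 4 fell (2 without P25-KO2 or P60-KO3) and none rose (2 without P60-KO2). Grm2, a presynaptic receptor, fell by 0.56 (0.00213), although the median of the list was 0.06 and turned to -0.05 with that correction, and 2 members rose with library totals made equal. Of 23 GABA-A and glycine receptor genes, 4 rose and 4 fell, with a median of 0.10 that turned to -0.05 with the correction (1 rose and 5 fell). With library totals made equal, 5 rose and 2 fell. Without any 1 library, 1 (without P25-KO3) to 3 of them rose and 1 (without P25-KO2, P60-KO1 or P60-KO3) to 3 fell. Gabrd, the extrasynaptic delta subunit, fell by 0.31 (0.00691).

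Chloride handling decides the sign of the GABA response, through the importer NKCC1 (Slc12a2) and the exporters of the KCC family. Of 14 transporters and kinases, 3 rose and 2 fell, and none fell without P25-KO3, P60-KO1 or P60-KO3. With library totals made equal or medians centred 5 rose, and with the length and GC correction 1 fell. Slc12a2 had 3713, 3317 and 3577 at P25 and 2959, 3168 and 2907 at P60 (log2 difference -0.23 ± 0.06, adjusted p = 0.0265). The groups of Slc12a2 were close, and it was not called without P25-KO1, P25-KO3, P60-KO1 or P60-KO3.

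Synaptic genes fell more often than they rose, by small amounts. Of 59 presynaptic genes, 20 fell and 7 rose, with a median of -0.09. Syp, the vesicle protein synaptophysin, had 42591, 43190 and 42299 at P25 and 31235, 33002 and 31735 at P60 (log2 difference -0.42 ± 0.04, adjusted p = 4.66e-04), and Stx1a, a SNARE protein, fell by 0.52 (4.25e-04). Of 56 adhesion proteins, 14 fell and 4 rose (2 without P25-KO3, 7 without P60-KO2 or with equal library totals, and 10 fell and 1 rose with the length and GC correction). Nlgn3, neuroligin 3, had 4871, 4778 and 4902 at P25 and 3269, 3384 and 3302 at P60 (-0.55 ± 0.05, 1.63e-04), with 41.9% of its words in other genes, and Nrxn2, neurexin 2, fell by 0.45 (6.83e-04). Of 44 postsynaptic scaffold and signalling genes, 10 fell and 3 rose, while the list's median was 0.01. With equal library totals 8 of these fell and 6 rose, with the length and GC correction 6 fell and 4 rose, and without P25-KO3 7 fell and 1 rose. Dlg4, the scaffold PSD-95, had 26508, 27282 and 28565 at P25 and 22366, 21750 and 22137 at P60 (-0.31 ± 0.05, 0.00227), and Nrgn, a calmodulin-binding protein, fell by 0.41 (0.00135). Of 35 genes for partners of Shank3, a list that overlaps these, 12 fell and 1 rose, and 7 to 9 fell without any 1 library, fewest without P25-KO2. Dlgap3, a SAPAP abundant in the striatum, had 13964, 15632 and 17316 at P25 and 11979, 10947 and 11579 at P60 (-0.44 ± 0.07, 0.00380), without overlap.

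Ion channel lists gave calls of both signs. Of 26 genes of calcium channels, stores and pumps, 9 rose and 3 fell, with a median of 0.12, and 7 rose and 2 fell with the length and GC correction. Of the 24 channel subunit genes named Cacn alone, 3 rose and 4 fell, with a median of -0.10. Ryr1, a ryanodine receptor, had 812, 869 and 789 at P25 and 1258, 1215 and 1509 at P60 (log2 difference 0.68 ± 0.09, adjusted p = 0.00133), and Itpr1, the inositol trisphosphate receptor, rose by 0.49 (0.00228). Of 69 potassium and HCN channels, 10 rose and 7 fell (3 and 4 without P25-KO3, 5 and 5 without P25-KO1 or P60-KO3), and 4 fell with the length and GC correction. Kcnj4, an inward rectifier, had 3747, 3793 and 4082 at P25 and 2927, 3157 and 2809 at P60 (log2 difference -0.39 ± 0.06, adjusted p = 0.00303). Of 20 sodium channel genes, 3 rose and 2 fell, Scn1a, the main channel of fast-spiking interneurons, by 0.36 (0.00647) and the auxiliary subunit Scn2b by -0.27 (0.0102). Of these genes, 5 rose without P60-KO1 or with equal library totals and 2 without P25-KO1, P25-KO3, P60-KO2 or P60-KO3, and 1 fell without P25-KO1, P25-KO2, P60-KO1 or P60-KO3.

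Of 24 genes of perineuronal nets and lecticans, some of which oligodendrocytes and their precursors also express, 7 fell and 2 rose. Ncan, the lectican of the young brain, had 11202, 12454 and 12368 at P25 and 6259, 6337 and 6065 at P60, and Bcan, brevican, fell by 0.41 (adjusted p = 0.00249). Of the link proteins, Hapln1 had 962, 837 and 964 at P25 and 501, 485 and 647 at P60 (log2 difference -0.77 ± 0.11, 0.00228), and Hapln4 had 3401, 3200 and 3307 at P25 and 4153, 4176 and 4134 at P60 (0.33 ± 0.05, 0.00244). The ages were apart for both, in opposite directions. Acan, aggrecan, did not pass (198, 207 and 184 at P25, 187, 199 and 192 at P60, adjusted p = 0.887).

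Calls among nuclear and mitochondrial genes of respiration were in opposite directions. Of 76 nuclear genes of the respiratory chain and ATP synthase, 33 fell and 1 rose, with a median of -0.21, and 20 (without P25-KO3) to 41 (without P25-KO2) fell when 1 library was left out. Cox6a1, a subunit of cytochrome c oxidase, had 9208, 8525 and 11178 at P25 and 6289, 5959 and 5479 at P60 (log2 difference -0.70 ± 0.09, adjusted p = 0.00137), Uqcr11 of complex III fell by 0.71 (0.00135), and Atp5g1, the c-ring of ATP synthase, by 0.59 (7.30e-04). Atp5a1, its alpha subunit, did not pass (-0.10 ± 0.05, adjusted p = 0.154). Of the 13 genes for proteins encoded in mitochondrial DNA, 10 rose and none fell, with a median of 0.31. Of these, mt-Nd2 of complex I had 73909, 77780 and 74755 at P25 and 109931, 99523 and 103578 at P60 (0.47 ± 0.05, 5.67e-04), mt-Co1 rose by 0.34 (0.00396) and mt-Atp6 by 0.73 (0.00255). Nearly all words of mt-Atp6 (99.5%) and 63.9% of those of mt-Co1 occur in other genes. With the length and GC correction, 6 of the 13 rose and none fell, and 1 fell without P60-KO1. Cytosolic ribosomal proteins fell in 17 of 80 and rose in 1, and between 6 (without P60-KO3) and 26 (without P25-KO2) fell when 1 library was left out, with 9 without P25-KO3. Rps2 fell by 0.59 (0.00102), with 48.8% of its words in other genes. Of 78 mitochondrial ribosomal proteins, 14 fell and 1 rose, and 4 to 10 fell without any 1 library, fewest without P25-KO3, and 9 with library totals made equal. Of 46 proteasome genes, 10 fell and 2 rose, and 3 fell without P25-KO1, P25-KO3 or P60-KO3 and 4 without P60-KO1. With the length and GC correction, 28 of the nuclear respiratory genes fell and 2 rose, 15 of the cytosolic ribosomal proteins fell and 2 rose, 9 of the mitochondrial ribosomal proteins fell and none rose, and 9 of the proteasome genes fell and 1 rose.

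The direction of a gene's difference went with the length and base composition of its transcript. Genes were split into 5 equal bins by their longest annotated transcript. In the bin of shortest transcripts (164 to 1831 bases), 3.27% rose and 15.0% fell, and in the bin of longest (5066 to 123179 bases), 20.1% rose and 8.70% fell. In the bin of lowest GC content (28.7 to 43.7%), 17.3% rose and 2.81% fell, and in the bin of highest (55.5 to 78.3%), 2.67% rose and 24.2% fell. Within the KO, the mean deviation of the highest-GC bin minus that of the lowest was 0.10, 0.13 and 0.21 (log2) in the P25 libraries and -0.10, -0.13 and -0.21 in the P60 libraries, without overlap. The WT libraries gave 0.16, 0.14 and 0.15 at P25 and -0.12, -0.14 and -0.21 at P60. The part of this trend in the counts of short or GC-rich genes (ribosome, respiration, proteasome) and of long or AT-rich genes (those that follow) was not tested beyond the counts given with the length and GC correction. That correction moved several named differences by over 1.5 times while the genes stayed called. It brought Apoe to -0.32, Igfbp2 to -0.31, Slc17a7 to -0.20, Npy to -0.26, Cnih2 to -0.21, Nrgn to -0.23, Kcnj4 to -0.23 and Bcan to -0.26. Cox6a1 came to -0.46, Uqcr11 to -0.45, mt-Co1 to 0.22, Scn1a to 0.19, Sf3b1 to 0.22 and Clk1 to 0.22. Slc12a2 (-0.36), Qk (-0.53) and Srebf1 (0.33) moved farther from 0.

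**Figure D4:**
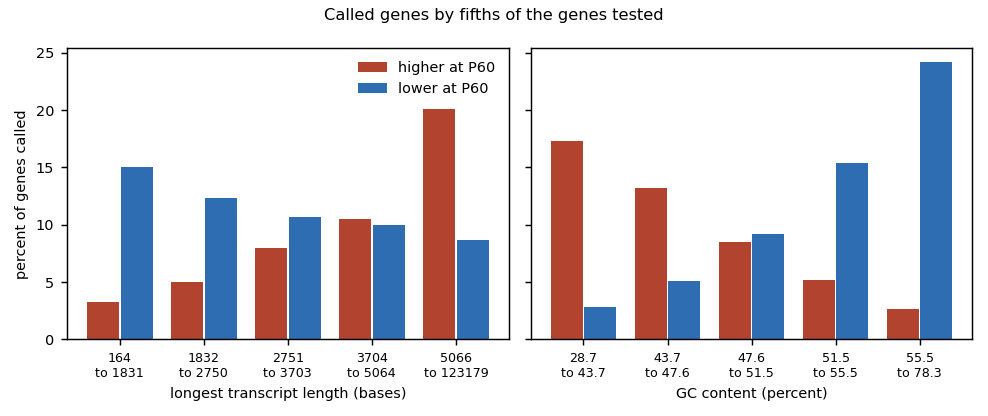
Percent of tested genes called higher (red) or lower (blue) in P60-KO (y axis, from 0) by 5 equal bins of longest transcript length in bases (left) and of its GC content in percent (right). The share that rose climbs from 3.27% to 20.1% with length, and the share that fell climbs from 2.81% to 24.2% with GC content.

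Genes of RNA processing rose more often than they fell. Counts with the length and GC correction are given in brackets. Of 42 neuronal splicing regulators, 12 rose and 2 fell (11 and 4 with the correction). Srrm1, a splicing coactivator, had 3778, 3792 and 3473 at P25 and 5136, 4851 and 5098 at P60 (log2 difference 0.45 ± 0.06, adjusted p = 0.00106), and Clk1, a kinase of SR proteins, rose by 0.39 (0.00248). The 2 that fell were Nova2, a neuronal splicing factor (-0.62, 2.72e-04), with 31% of its words in other genes, and Qk, the splicing factor quaking of glia (-0.34, 0.00143). Of 61 spliceosome genes, 14 rose and 6 fell (6 and 4), and without any 1 library 8 to 11 rose, fewest without P25-KO1, P25-KO3 or P60-KO1, and 2 (without P25-KO3) to 6 fell. Sf3b1, of the U2 particle, rose by 0.37 (0.00183), and Snrpc, of the U1 particle, fell by 0.64 (0.00115). Of the 11 SR splicing factors named Srsf, 7 rose and none fell (3 and none), with 4 higher without P25-KO1, P25-KO2 or P60-KO1.

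The lists of chromatin genes differed in direction. Of 30 histone lysine methyltransferases, 7 rose and 1 fell (7 and 2), with none lower without P25-KO3 or P60-KO3. Beside Kmt2a, Kmt2c had 3377, 3251 and 3266 at P25 and 4060, 4019 and 4562 at P60 (0.35 ± 0.06, 0.00424), and Ash1l rose by 0.35 (0.00391). With the correction these came to 0.20 for Kmt2c and 0.18 for Ash1l, both still called. Of 63 other chromatin regulators, 14 rose and 9 fell, a split that turned to 5 and 8 with the correction and to 18 and 5 with equal library totals. Without any 1 library, 6 (without P25-KO1, P25-KO3 or P60-KO3) to 12 rose and 5 (without P25-KO1 or P60-KO1) to 7 fell. Baz1b, a remodeller, rose by 0.34 (0.00289), and Dnmt3a, the DNA methyltransferase of postnatal neurons, fell by 0.41 (0.00478). Of 29 histone genes, 9 fell and 1 rose (7 and 1 with the correction, and 5 fell without P25-KO1 or P60-KO2), with Hist3h2ba at -0.88 (0.00139). Of 30 long noncoding RNAs, 11 rose and 2 fell (8 and 3), with 7 higher without P25-KO1, P60-KO1 or P60-KO3, among them Ftx of the X inactivation centre, which rose by 0.78 (0.00123). Of 107 autism risk genes, 24 rose and 11 fell, and 14 rose and 17 fell with the correction, while the list's median moved from 0.08 to 0.02. Leaving out 1 library gave 15 (without P25-KO3) to 22 higher and 6 (without P25-KO2) to 12 lower. Phf21a, a reader of unmethylated histone H3 in that list, rose by 0.69 (5.09e-04). Of 393 genes named Zfp, which are zinc finger proteins, 59 rose and 24 fell (29 and 17), and without any 1 library 22 (without P25-KO3) to 48 rose and 11 (without P25-KO3 or P60-KO3) to 18 fell.

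Several circadian clock genes rose. Of 21 genes, 8 rose and none fell, with a median of 0.12, while 8 rose and 3 fell without P60-KO2 and 9 rose and 1 fell with the length and GC correction. Per2 had 1767, 1272 and 1893 at P25 and 2535, 2275 and 2758 at P60 (log2 difference 0.63 ± 0.13, adjusted p = 0.00968), and Clock rose by 0.42 (0.00425), which came to 0.21 with that correction (0.0236). Arntl, which encodes BMAL1, did not pass (0.24 ± 0.11, adjusted p = 0.139). The hour at which each mouse was sampled is not given in the sources used here.

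Counts of genes induced by activity or stress depended on single libraries. Of 36 immediate early genes, 2 rose, Npas4 (0.72 ± 0.21, adjusted p = 0.0345) and Inhba (0.72 ± 0.17, 0.0170), and 1 fell, Nptx2 (-0.36 ± 0.09, 0.0256). Fos had 699, 605 and 1398 at P25 and 1103, 1111 and 1031 at P60 (adjusted p = 0.312), and its groups overlapped. No gene of this list was called without P60-KO3, where the adjusted p was 0.0782 for Npas4, 0.0585 for Inhba and 0.0777 for Nptx2. Without P25-KO3, 8 other genes of the list were called higher and these 3 were lost. The summed level of the list was 71307 in P25-KO3, against 52020 and 48772 in P25-KO1 and P25-KO2 and 58349 to 65359 at P60. Npas4 and Inhba were lost without P60-KO1, Npas4 and Nptx2 without P60-KO2, and Inhba and Nptx2 without P25-KO1. Nptx2 was lost with the length and GC correction (0.141). Of 38 heat shock genes, 5 rose and 1 fell, and 2 (without P60-KO3) to 11 (without P60-KO2) rose when 1 library was left out, with Hsp90aa1 0.48 higher (0.00170) and 51.5% of its words in other genes. Of 24 genes that respond to glucocorticoid or thyroid hormone, 7 fell (11 without P25-KO2) and 4 rose (2 with the length and GC correction), among them Plin4, named above, and Ddit4, an inhibitor of mTOR, which had 2162, 1852 and 2575 at P25 and 1163, 1359 and 1283 at P60 (-0.78 ± 0.11, 0.00181). Of 45 genes listed for MHC class I and the interferon response, 2 rose (1 without P25-KO3, P60-KO1 or P60-KO3), of which 1 was the cytokine gene Il33, named above. In the same list 3 fell (1 without P25-KO2 or P25-KO3 or with the length and GC correction), with Irf7 at 87.8, 100 and 101 at P25 and 44.6, 50.6 and 47.3 at P60 (adjusted p = 0.00344).

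Higher and lower members numbered 5 and 15 of 71 axon guidance genes, 3 and 3 of 56 clustered protocadherins, 4 and 7 of 49 WNT and BMP genes, and 1 and 4 of 17 insulin-like growth factor genes. They numbered 6 and 5 of 27 imprinted genes, 7 and 6 of 42 MAP kinase genes, 2 and 7 of 24 glycolysis genes, and 1 and 4 of 36 monoamine and cholinergic receptors. Without single libraries, no insulin-like growth factor gene was higher (without P25-KO1, P25-KO3, P60-KO2 or P60-KO3), 2 axon guidance genes were higher (without P25-KO1, P25-KO3, P60-KO1 or P60-KO3) and 3 glycolysis genes lower (without P25-KO1). The counts of WNT and BMP genes then came to 1 higher (without P25-KO1, P25-KO3, P60-KO1 or P60-KO3) and 3 lower (without P25-KO3 or P60-KO3), and the imprinted genes to 2 (without P25-KO3) or 3 higher (without P60-KO3). Of the MAP kinase genes, 4 were higher without P25-KO2, P60-KO1 or P60-KO3 and 3 lower without P25-KO1, and of the receptors 2 were lower without P25-KO1, P25-KO2 or P60-KO1 and 3 higher without P60-KO2. With the length and GC correction, the lower protocadherins numbered 5, the higher imprinted genes 2, the higher and lower MAP kinase genes 4 and 3, glycolysis genes 1 and 4, and receptors 0 and 2, and no insulin-like growth factor gene was higher. Of 18 neurotrophins and receptors, 1 rose and none fell (1 fell with TMM scaling, and 2 rose and 1 fell without P60-KO2), and Bdnf had 751, 596 and 688 at P25 and 747, 646 and 774 at P60 (0.09 ± 0.10, adjusted p = 0.565). Among families defined by symbol, 8 of 16 tetraspanins and 6 of 11 connexins fell and none rose, with 4 tetraspanins without P25-KO1, P25-KO3 or P60-KO3 and 3 to 4 connexins without any 1 library. Of 290 solute carriers, 21 rose and 56 fell (11 and 39 without P60-KO3, 12 and 36 without P25-KO3).

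**Figure D5:**
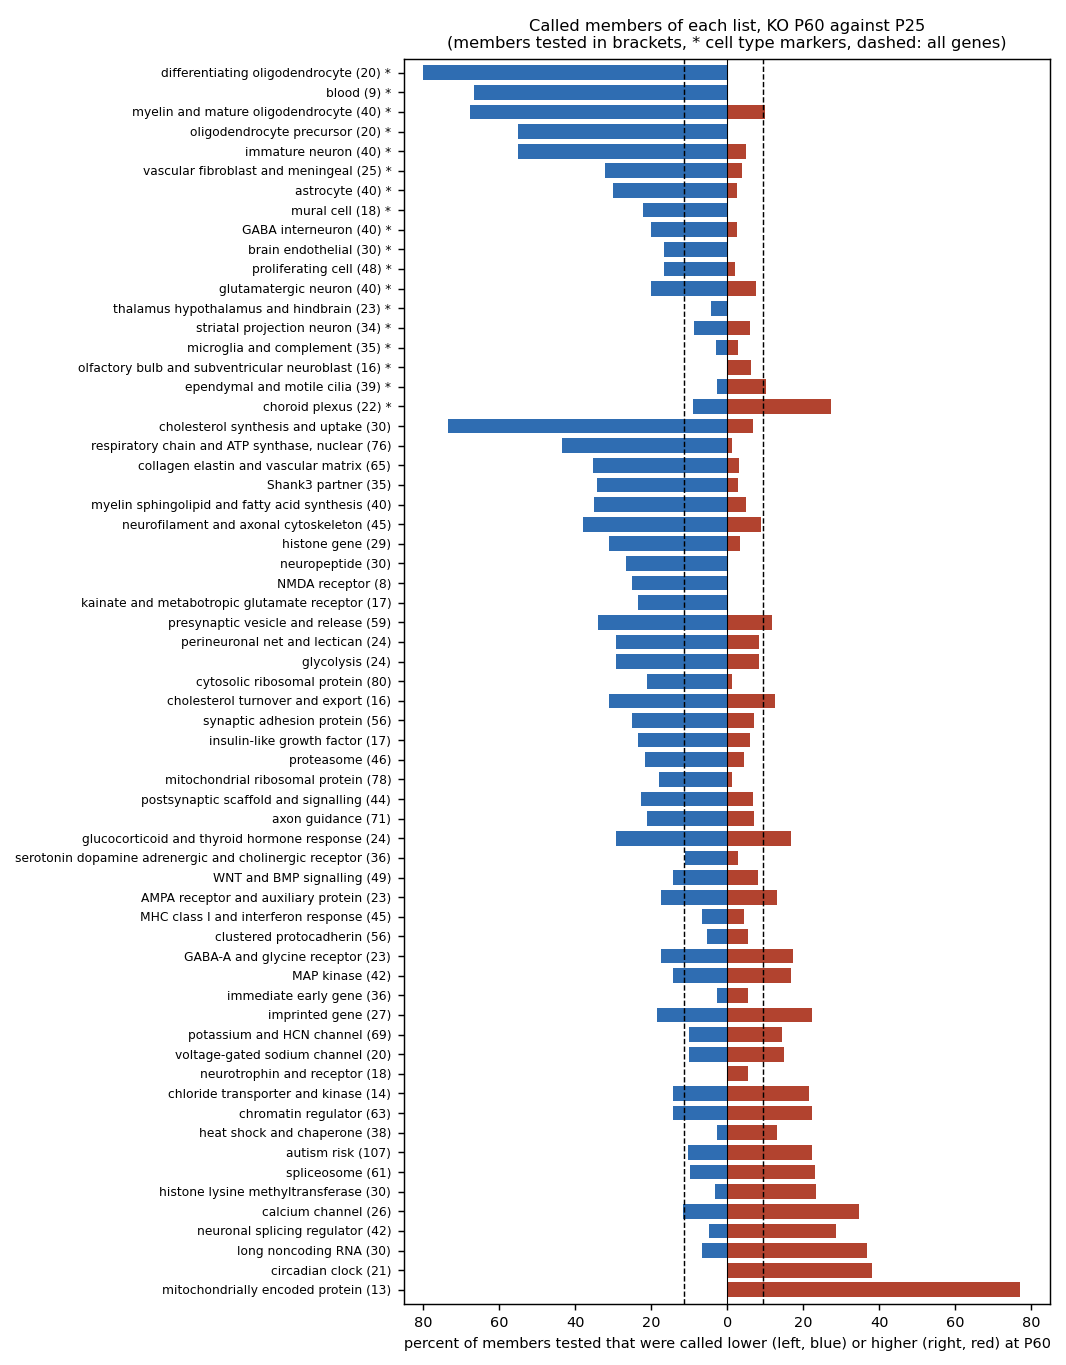
Percent of the tested members of each of 63 lists that were called lower (blue, to the left) or higher (red, to the right) in P60-KO, with the number tested in brackets, cell type lists marked by an asterisk and the shares of all genes (11.3% lower, 9.37% higher) as dashed lines. The longest bars to the left are those of differentiating oligodendrocytes (16 of 20) and cholesterol synthesis (22 of 30), and the longest to the right is that of mitochondrially encoded proteins (10 of 13).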

How the data were processed

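Forebrain RNA was sequenced as TruSeq libraries, 1 per mouse. According to the study's methods, transcripts were quantified with Salmon (GC bias corrected), brought to genes with tximport and normalized by the authors with DESeq2. The submitters' processing notes say the authors used Salmon 1.1.0 and DESeq2 1.26.0, while the authors' methods name another DESeq2 version. The deposited values of 19268 genes are a signal in units of counts, after the authors' division by factors that differ by gene as well as by library. They are not whole reads (0.529% lie within 0.001 of a whole number), so no count model was fitted, and depth, intervals and detection limits are unknown. The reference transcriptome and the use of strand are not given in the sources used here, so overlapping and antisense genes are uncertain.

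Linear models were fitted with limma 3.58.1 (R 4.3.3), with moderated variances that follow the mean level, to log2(value + 1), a scale that understates the change of low genes. Genes entered at an average of 10 or more in the 6 KO libraries, and the interaction used all 12 libraries. P-values measure the spread between 3 mice per group. Annotation came from GENCODE M21 (GRCm38, 19252 of 19268 identifiers) and promoters from RefSeq (GRCm38.p6). Words of 31 bases shared with other genes mark uncertain splits of reads. The procedure was tested on simulated data.

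Genes were named from a rule: Shank3, the 12 per direction with the smallest adjusted p and ages apart, the 10 per direction with the largest difference at a mean of at least 50, and in each list up to 6 called members and the first tested member, with pseudogenes and identifier-like symbols passed over. Some genes that the rule names are not reported here. The groups compared, the 63 lists (18 of cell types, 45 of pathways, from general knowledge) and the 40 symbol families were chosen with earlier results of these data known. Alternatives were another pseudocount, filter, scaling or variance model, quality weights, a replicate block, a per-library correction for transcript length and GC content (2 splines, 5 degrees of freedom) and leaving out each library.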

Additional observations from a re-analysis of the deposited data

How the results depend on the processing

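Of 3641 calls between the ages, the count was within 1.5 times under every change of pseudocount, filter, scaling, weights and block and with the length and GC correction, and fell to 1725 without the mean-variance trend (1593 of them among the main calls). Leaving out 1 library gave 2093 to 3230 calls, and moved the count by over 1.5 times without P25-KO3 (2093), P60-KO3 (2181), P60-KO1 (2323) and P25-KO1 (2354), each with fewer samples. The share of calls that were higher, 45.3%, was 56.5% with equal library totals, 50% with medians centred, 42.2% without the trend, 42.4% with the length and GC correction (2861 genes called, 2201 shared) and 40 to 45.7% without 1 library. The cause of these shifts was not tested. The median of all genes was at most 0.04 under any scaling. The interaction called 0 genes under every alternative but 3, those without P25-WT1, P25-WT3 or P60-WT1, which called 1 gene each (Gm37385, Gm2260 and Gm28048), a range of 0 to 1.

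Same-numbered P25-KO and P60-KO libraries did not deviate together (correlations of -0.03, 0.05 and -0.03), so the replicate numbers do not pair them. With the replicate block, 2482 genes were called, of which 43.2% were higher.

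Of 130 named genes that were called, 101 were called under all 17 alternatives, 25 were lost without the trend, 9 with the length and GC correction, 10 without 1 library and 6 with the block. Aqp4, Ttr, Arntl and Fos, which were not called, were each called under 1 alternative. Only genes that were not called changed sign. With the length and GC correction, the log2 difference was 0.02 for Shank3, -0.11 for Dcn, -0.01 for Gria1, 0.03 for Acan and -0.05 for Bdnf, and with equal totals it was 0.01 for Acan. Without 1 library it ranged from -0.11 to 0 for Shank3, 0 to 0.05 for Gria1, -0.01 to 0.14 for Bcas1, -0.07 to 0.01 for Acan and -0.22 to 0.25 for Cldn5. With 3 libraries per group and unknown depth, no limit of detection can be given.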
